A study of Mus musculus with 6 samples.

Results

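The SLC25 family is a group of carrier proteins, most of which move metabolites across the inner mitochondrial membrane. Its members on this array are the genes whose symbol starts with Slc25a. Probe sets that name 1 such gene were taken, and each gene was read by its brightest probe set, that with the highest mean log2 signal over all arrays. This gave 44 carrier genes of 18193 genes with a probe set, read by 93 probe sets in all. Of these carriers, 38 passed a filter on dim signal and were tested among 11075 genes, and 6 did not pass it.

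The tissue was left ventricle, taken from males of strain C57BL/6 aged 12 to 16 weeks. The first genotype was akt2-/-, a targeted gene disruption crossed back to C57Bl/6 more than 7 times, and the other was wild type, with 3 samples each and 1 Affymetrix array a sample. Akt2 is a serine/threonine kinase that carries the insulin signal, and the question was which ventricular transcripts differ without it. Whether each sample was a different animal is not stated in the labels. The p-values then reflect the scatter of these samples alone, which may be technical, and the small number of arrays limits the precision.

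Carriers of this family share a fold of repeated modules with membrane-spanning helices, and most exchange a solute of the matrix for another in the cytosol. In heart muscle they export ATP in exchange for ADP, bring in phosphate, pass reducing equivalents by the malate-aspartate shuttle and admit long-chain fatty acids as carnitine esters. Others supply amino acids, cofactors, nucleotides and iron for the enzymes of the matrix.

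Akt2 itself had low signals on all 3 knockout arrays. Its brightest probe set had signals of 2363, 2561 and 2505 in wild type replicates 1 to 3 and 478, 394 and 255 in the knockout. The log2 difference, knockout minus wild type on the scale log2(signal + 21.7), was -2.69 (limma adjusted p = 0.0638, n = 3 each), and its other probe sets gave -3.63 and -1.11. The labels do not place these probe sets relative to the disrupted part of the gene. Replicate 1 differed from the other 4 arrays in both genotypes. Median signals were 167.2 for wild type replicate 1 and 134.3 for knockout replicate 1, against 88.4 to 91.2. Controls for 18S ribosomal RNA read 82330 and 57275 in the same order, against 153 to 447. The replicate 1 arrays were also unlike each other. By correlation of log2 signals, knockout replicate 1 was closer to the other 4 arrays (0.933 to 0.937) than to wild type replicate 1 (0.898). For many carriers, values within the replicate 1 pair and within replicates 2 and 3 stand beside the pooled ones. Each replicate 1 value compares 1 array a genotype, so genotype and differences between these arrays cannot be told apart in it. The samples are whole tissue, in which fewer cells of a type and less RNA per cell cannot be told apart.

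None of the 38 tested carriers passed the test for a genotype difference. With limma and Benjamini-Hochberg adjustment over all 11075 genes, 0 carriers had an adjusted p under 0.05, against 0% of all genes. The lowest adjusted p of a carrier was 0.9999. An unadjusted p under 0.05 was found for 3 carriers (Slc25a28, Slc25a23 and Slc25a25) and for 2.17% of all genes. With the replicate number as a block these were 6 carriers and 5.99% of all genes, and again 0 carriers passed after adjustment (lowest limma adjusted p = 0.7671). With replicate 1 against replicates 2 and 3 as a block, 5 carriers and 8.32% of all genes had an unadjusted p under 0.05, and 0 carriers and 0.00903% of genes passed after adjustment.

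The median difference of the carriers between the genotypes was small. Their log2 differences ran from -0.51 to 0.61. The median was 0.05, against 0.01 over all tested genes. Per array, the median deviation of the carriers from their means over all arrays was -0.04, -0.09 and -0.08 in wild type replicates 1 to 3. In the knockout it was 0.02, 0.05 and 0.05. For all tested genes it was 0.04, -0.01 and -0.01 in the wild type and 0.05, -0.01 and 0.00 in the knockout. This shift was not tested. Of the 38, 24 had a higher mean in the knockout and 14 a lower one, and 53.28% of all genes had a higher one. With arrays scaled to 1 median the split was 27 and 11, beside 72% of all genes, because that scaling lifts the median of all genes by 0.10. The knockout was higher in all 3 same-numbered pairs for 6 carriers, against 15.9% of genes, and lower in all 3 pairs for 5 carriers, against 14.1%.

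For 6 carriers the 3 knockout arrays were all above or all below the 3 wild type arrays, 15.8% of those tested, against 7.46% of all genes. Above the wild type were 4 carriers (Slc25a23, Slc25a25, Slc25a38 and Slc25a51), where 3.90% of genes were, and below it were 2 (Slc25a28 and Slc25a30), where 3.56% were. None of these 6 stayed apart when the arrays were scaled to 1 median. Slc25a27 and Slc25a35 were apart instead, beside 5.21% of genes, while quantile normalization kept all 6 apart.

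**Figure D1:**
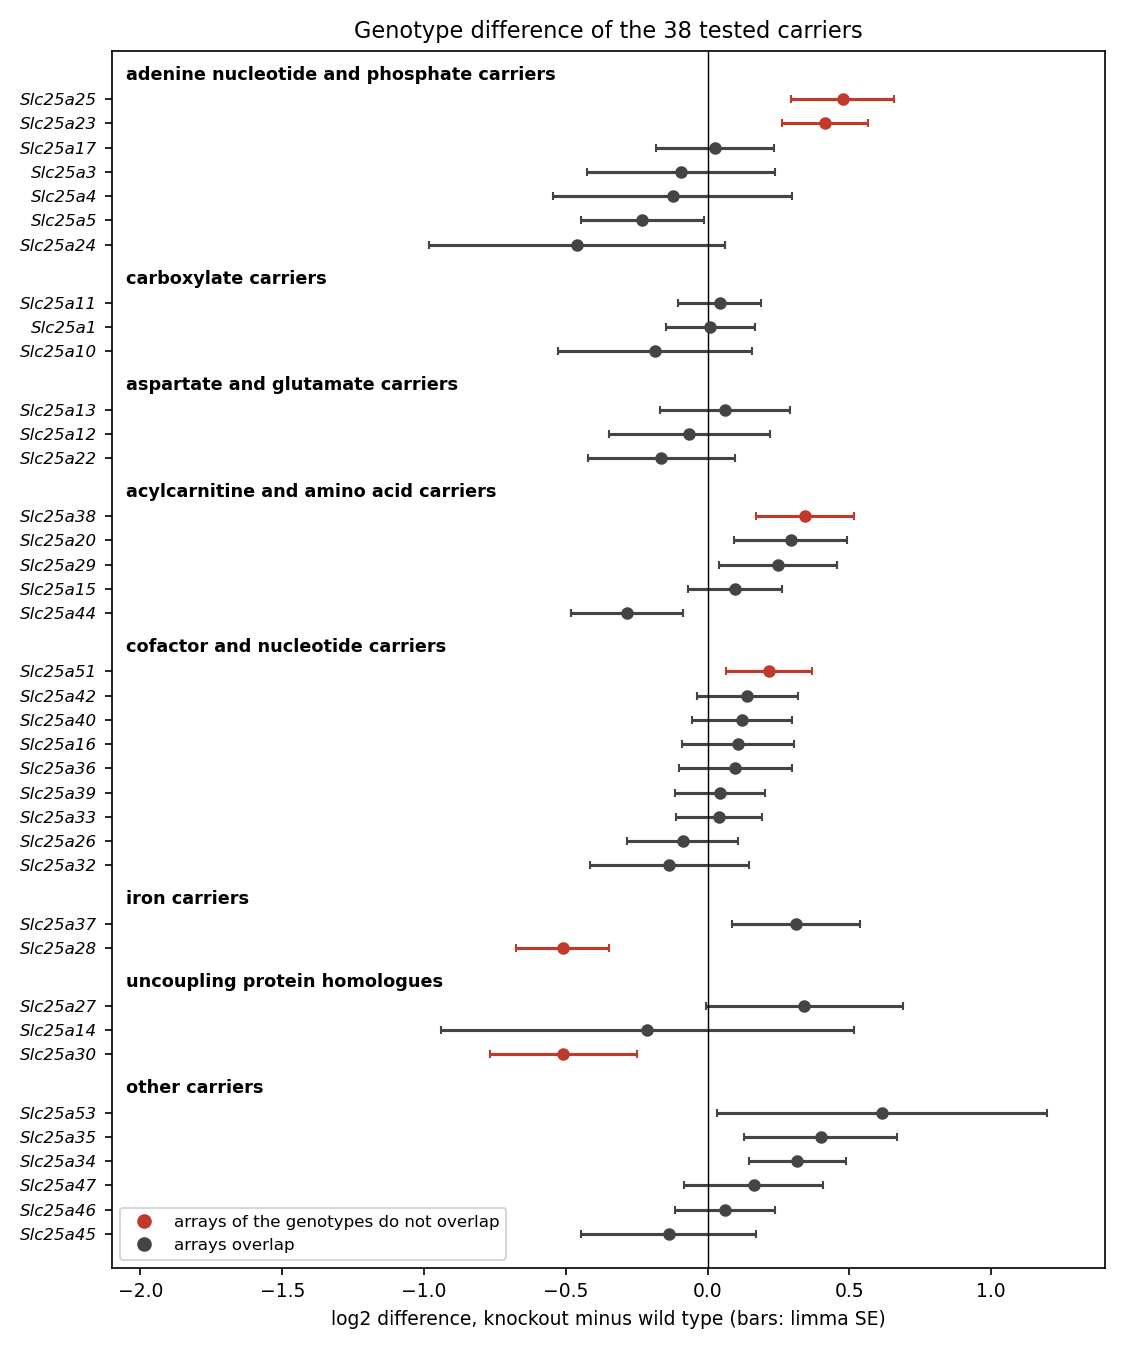
Log2 difference of each tested carrier, knockout minus wild type, by brightest probe set, grouped by role. Points are means of 3 arrays a genotype, bars are limma standard errors, and red marks the 6 carriers whose arrays did not overlap. Most carriers sit within 0.3 of 0.

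Several carriers of adenine nucleotides and phosphate feed oxidative phosphorylation. Of 9 in this group with a probe set, 7 were tested and 0 passed, 3 with a higher and 4 with a lower mean. Slc25a4 encodes ANT1, the ADP/ATP translocase of heart and skeletal muscle. Its signals were 162071, 52808 and 66031 in wild type replicates 1 to 3, and 93626, 64153 and 72861 in the knockout. Wild type replicate 1 was by far the brightest array and the genotypes overlapped. On the log2 scale the difference was -0.12 (SE 0.42, 95% interval -1.12 to 0.88), with -0.79 for replicate 1 and 0.21 for replicates 2 and 3. Leaving out wild type replicate 1 gave 0.36, and quantile normalization gave 0.02, so Slc25a4 has no settled direction.

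Slc25a3, the phosphate carrier, followed the same array pattern. It had 102818, 43995 and 54968 in the wild type and 70796, 51125 and 56371 in the knockout. In log2 terms the difference was -0.10 (SE 0.33, 95% interval -0.88 to 0.69), -0.54 for replicate 1 and 0.13 for the rest. Leaving out wild type replicate 1 gave 0.26, and it was 0.01 with arrays scaled to 1 median. The dimmer probe set of Slc25a3 had knockout replicate 1 as its highest array, with 342.7, 200.5 and 144.2 against 475.6, 147 and 213.1. Summed markers of ventricular myocytes had the same array pattern as the brightest probe sets of these carriers. The summed signal of 8 of 8 markers (Myh6, Myl2, Myl3, Tnni3, Tnnt2, Actc1, Ryr2 and Atp2a2) was 1214149, 372672 and 477949 in the wild type and 721042, 452848 and 499874 in the knockout. None of these markers had a signal near 0. Their median log2 difference was -0.71 for replicate 1 and 0.18 for replicates 2 and 3, and their part in the carriers' values was not tested.

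Slc25a5 encodes ANT2, the translocase found in many dividing and non-muscle cells. It had 28497, 17940 and 21536 in the wild type and 18697, 17119 and 21266 in the knockout, with overlap. The log2 difference was -0.23 (SE 0.22), -0.61 for replicate 1 and -0.04 for replicates 2 and 3, and -0.05 with wild type replicate 1 left out. Its probe set is of the kind marked _x_at, which may also bind related sequences, so signal of the closely similar translocases may be mixed. Of its 8 probe sets, 6 were lower and 2 higher in the knockout, from -0.41 to 0.10. Slc25a4 had 4 probe sets with differences from -0.12 to 0.09. They did not share 1 array pattern, as the dimmer ones were lowest in replicate 1. One had 5734, 8906.5 and 10161.6 in the wild type and 6777.1, 8911.7 and 8740.5 in the knockout. The dimmest had 505.1, 946.1 and 911.3 against 553.3, 1136.3 and 832.3. Slc25a31, the translocase of male germ cells, did not pass the filter and had signals of 2.9 to 98.6.

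**Figure D2:**
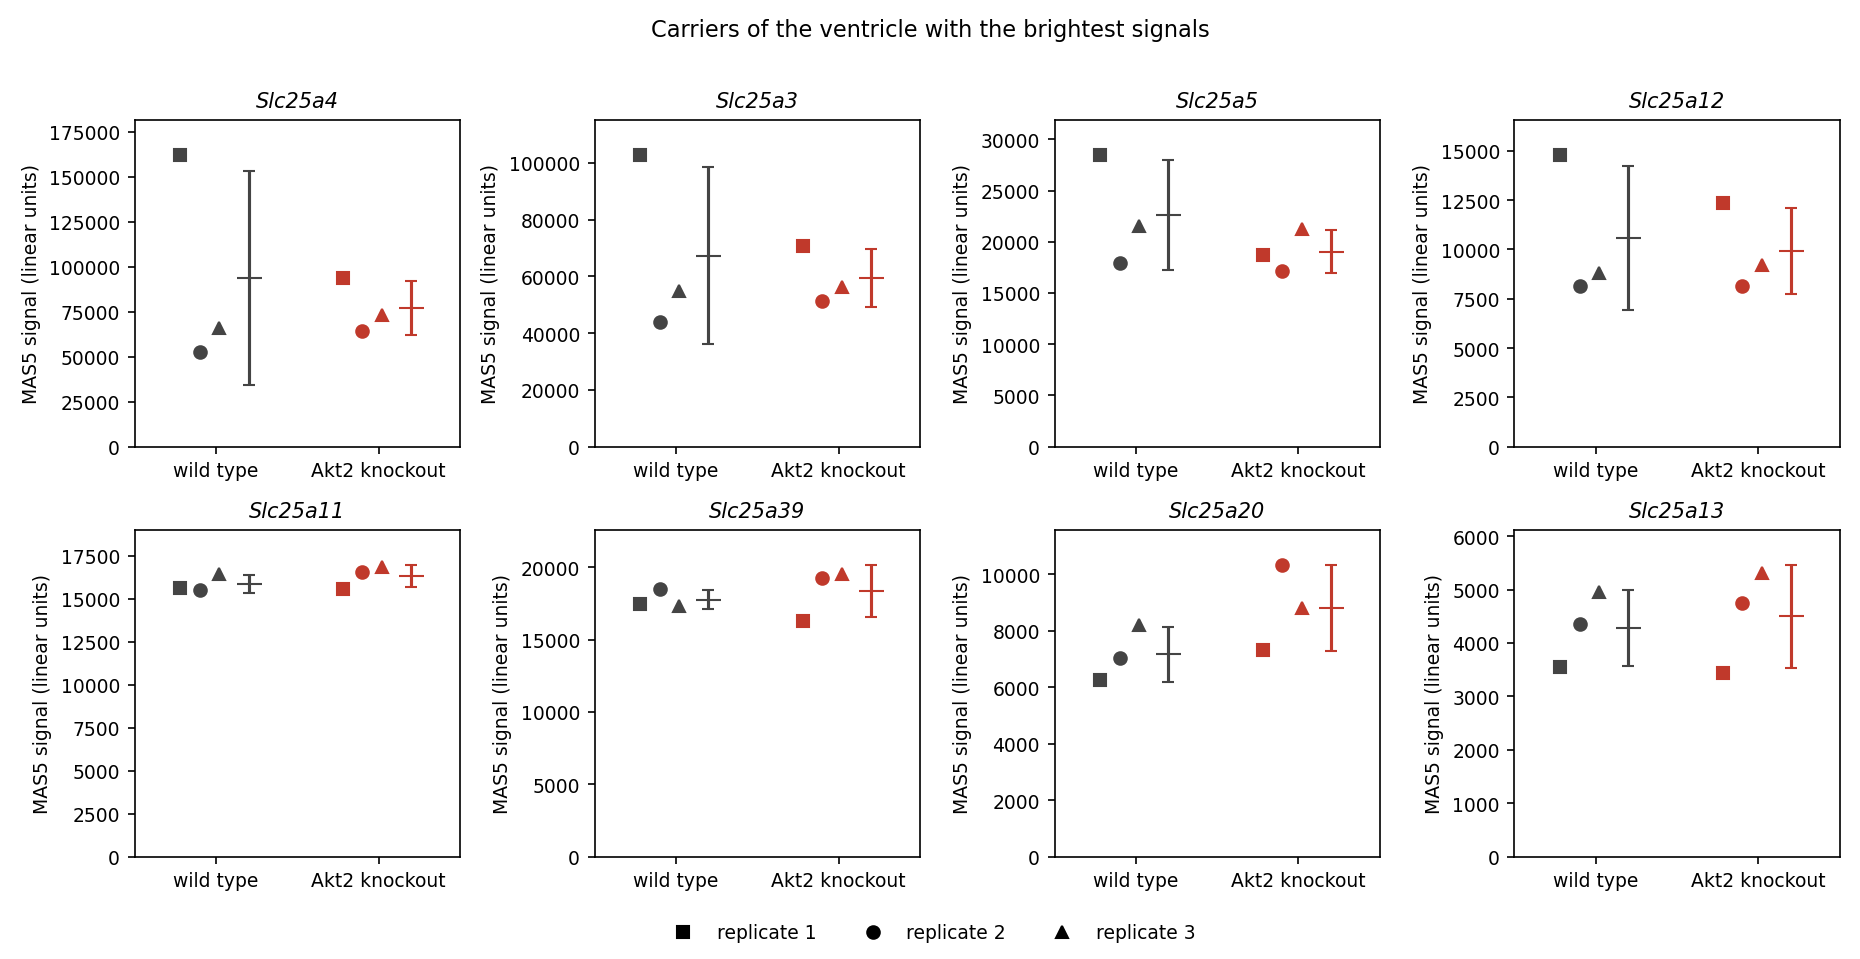
Signal (linear MAS5 units) of the 8 carriers with the brightest wild type signals, per array, with the mean and SD of 3 arrays at the right of each group. Wild type replicate 1 (dark square) tops Slc25a4, Slc25a3, Slc25a5 and Slc25a12, and both genotypes overlap in all 8 panels.

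The carriers that exchange magnesium-bound ATP for phosphate set the size of the adenine nucleotide pool of the matrix and respond to calcium. Slc25a23 had 382, 400 and 375 in the wild type and 550, 478 and 538 in the knockout. Every knockout array was above every wild type array. The mean was 522 ± 38.4 against 386 ± 13 (SD, n = 3 each), or 0.41 on the log2 scale (SE 0.15, 95% interval 0.06 to 0.77). Both subsets gave a similar size, 0.50 for replicate 1 and 0.37 for replicates 2 and 3. The limma adjusted p was 0.9999.

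Slc25a25 encodes another of these carriers. It had 187, 251 and 256 in the wild type and 339, 347 and 298 in the knockout, again without overlap. Expressed in log2 it was 0.48 (SE 0.18, 95% interval 0.05 to 0.91), 0.79 for replicate 1 and 0.32 for replicates 2 and 3. Its other probe sets did not pass the filter and went the other way. The first had 47.7, 48.0 and 111.6 in the wild type against 30.2, 13.9 and 33.2 (log2 -0.89, SE 0.35 in a fit over all probe sets, as for single probe sets below), all knockout arrays lower, and the other gave -0.52 (SE 0.71). With the mean of all its probe sets Slc25a25 missed the filter, so its higher value rests on 1 probe set.

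Slc25a24, of the same type and chosen here after its values were seen, had a lower mean in the knockout. It had 333, 763 and 806 in the wild type and 193, 656 and 584 in the knockout. Within each subset the knockout was lower, with log2 differences of -0.72 for replicate 1 and -0.33 for replicates 2 and 3. Both replicate 1 arrays were dim, and the pooled difference was -0.46 (SE 0.52, limma adjusted p = 0.9999). With replicate 1 against replicates 2 and 3 as a block the SE was 0.13, the unadjusted limma p 0.0124 and the adjusted p 0.5861. Without knockout replicate 1 it was 0.06, and its dimmer probe set gave 0.35 (SE 0.61). The difference between these carriers was not tested.

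Markers of atrial myocytes also had higher means in the knockout, 4 of 4. Their summed signals were 16125, 15006 and 16687 in the wild type and 16345, 18359 and 19949 in the knockout, and wild type replicate 2 was low in Myl7 (96.5, against 635 to 1861 elsewhere). Most of each sum was Nppa, with 12804, 14476 and 13298 against 11646, 15028 and 18373 (log2 0.13). In the replicate 3 pair Myl7, Sln and Myl4 were lower in the knockout. The part of these markers in the values of Slc25a23 and Slc25a25 was not tested.

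The promoter windows of the 3 carriers with the lowest unadjusted p are printed to show what their start sites hold. Each covers 250 bases before and 50 after a RefSeq start site (GRCm38.p6), 5′ to 3′ on the gene's strand. Slc25a28 has 1 such window (chr19:43674832-43675131, minus strand). Slc25a23 has 2, of which chr17:57059814-57060113 (minus strand) is shown, and Slc25a25 has 3, of which chr2:32424017-32424316 (minus strand) is shown because it holds a motif. Capitals mark the cyclic AMP response element TGACGTCA, the only motif found in these windows.
Slc25a28: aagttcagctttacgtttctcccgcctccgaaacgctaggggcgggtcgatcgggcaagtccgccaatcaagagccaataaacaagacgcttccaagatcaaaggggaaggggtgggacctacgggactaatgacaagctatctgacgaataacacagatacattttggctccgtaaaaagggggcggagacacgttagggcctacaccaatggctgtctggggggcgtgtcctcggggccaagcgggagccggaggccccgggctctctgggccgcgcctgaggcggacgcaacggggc
Slc25a23: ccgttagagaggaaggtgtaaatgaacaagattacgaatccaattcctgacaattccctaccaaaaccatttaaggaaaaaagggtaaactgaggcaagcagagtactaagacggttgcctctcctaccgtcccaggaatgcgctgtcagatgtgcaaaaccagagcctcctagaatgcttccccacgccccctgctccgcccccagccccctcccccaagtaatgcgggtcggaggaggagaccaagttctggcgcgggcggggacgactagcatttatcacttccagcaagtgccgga
Slc25a25: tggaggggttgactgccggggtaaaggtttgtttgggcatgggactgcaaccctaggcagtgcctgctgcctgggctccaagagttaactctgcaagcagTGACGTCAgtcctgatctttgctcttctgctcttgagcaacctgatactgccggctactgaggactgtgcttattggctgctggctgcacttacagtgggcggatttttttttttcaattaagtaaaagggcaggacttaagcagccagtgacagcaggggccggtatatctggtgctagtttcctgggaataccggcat
Among 34 carriers with a window in the table, this element was in windows of Slc25a25 and Slc25a36, and 1.79% of all 32851 windows hold it. The FoxO motif GTAAACA was in 0 of 43 carrier windows and 3.65% of all. The estrogen-related receptor motif AAGGTCA was in 1, of Slc25a34, and 4.72% of all. The NRF1 motif was in 2, of Slc25a3 and Slc25a31, and 4.6% of all. Both strands were searched, none of these motifs contains another, and a match is a description of letters, not of a bound site.

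The malate-aspartate shuttle carries the electrons of cytosolic NADH into mitochondria through an oxoglutarate carrier and an aspartate/glutamate carrier. No shuttle carrier passed the test. Slc25a11, the oxoglutarate/malate carrier, had 15613, 15495 and 16476 in the wild type and 15600, 16559 and 16832 in the knockout. Its arrays overlapped and lay close together (SD 535 and 647). On the log2 scale the difference was 0.04 (SE 0.15, 95% interval -0.31 to 0.39).

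Slc25a12 encodes aralar, the calcium-stimulated aspartate/glutamate carrier of muscle and brain. It had 14802, 8170 and 8809 in the wild type and 12348, 8168 and 9221 in the knockout, with both replicate 1 arrays high. In log2 terms the difference was -0.07 (SE 0.28), and 0.20 without wild type replicate 1. Slc25a13, or citrin, the related carrier that prevails in liver, had 3541, 4353 and 4949 against 3436, 4749 and 5311. Here the replicate 1 arrays were the low ones, and the log2 difference was 0.06 (SE 0.23), or -0.07 without wild type replicate 1 or without knockout replicate 3. Over both groups of shuttle and carboxylate carriers, 6 members were tested and 0 passed, with differences from -0.19 (Slc25a10, the dicarboxylate carrier) to 0.06. Slc25a10 had -0.86 for replicate 1 and 0.15 for replicates 2 and 3. Slc25a1, the citrate carrier, was at 0.01 (SE 0.16) and Slc25a22, a glutamate carrier, at -0.16 (SE 0.26).

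Slc25a20 is the carnitine/acylcarnitine carrier, the step of fatty acid entry between the outer and inner carnitine palmitoyltransferases. It had 6256, 7040 and 8207 in the wild type and 7306, 10337 and 8811 in the knockout. Each knockout array was above its same-numbered wild type array, but the genotypes overlapped. The log2 difference was 0.29 (SE 0.20, 95% interval -0.18 to 0.77), 0.22 for replicate 1 and 0.33 for the rest, and 0.17 with knockout replicate 2 left out. Its second probe set gave 0.27 (SE 0.27), close to the first.

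Among the amino acid carriers, 3 had a higher mean in the knockout and Slc25a44 a lower one. Slc25a38, which brings glycine into mitochondria for haem synthesis, had 542, 686 and 639 in the wild type and 724, 778 and 882 in the knockout. There was no overlap, and the mean was 795 ± 80 against 622 ± 73.3 (SD, n = 3 each). Expressed in log2 it was 0.34 (SE 0.17, 95% interval -0.06 to 0.75), 0.40 for replicate 1 and 0.31 for replicates 2 and 3. Slc25a44, a carrier of branched-chain amino acids, had 553, 358 and 419 against 369, 357 and 338, with overlap between 358 and 369. Its log2 difference was -0.28 (SE 0.20), -0.56 for replicate 1, -0.15 for replicates 2 and 3, and -0.12 with wild type replicate 1 left out. Its other probe sets gave 0.00 and -0.75. Slc25a29, a carrier of basic amino acids, had a log2 difference of 0.25 (SE 0.21), with -0.15 for replicate 1 and 0.45 for replicates 2 and 3. Its other probe sets gave 0.07 to 0.38, and -0.20 to 0.28 for replicate 1. For that at 0.38 every knockout array was above every wild type array. For Slc25a15, the ornithine carrier, the log2 difference was 0.10 (SE 0.17). In the group of 5 tested acylcarnitine and amino acid carriers, 4 had a higher mean in the knockout and 0 passed, with a median of 0.25.

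**Figure D3:**
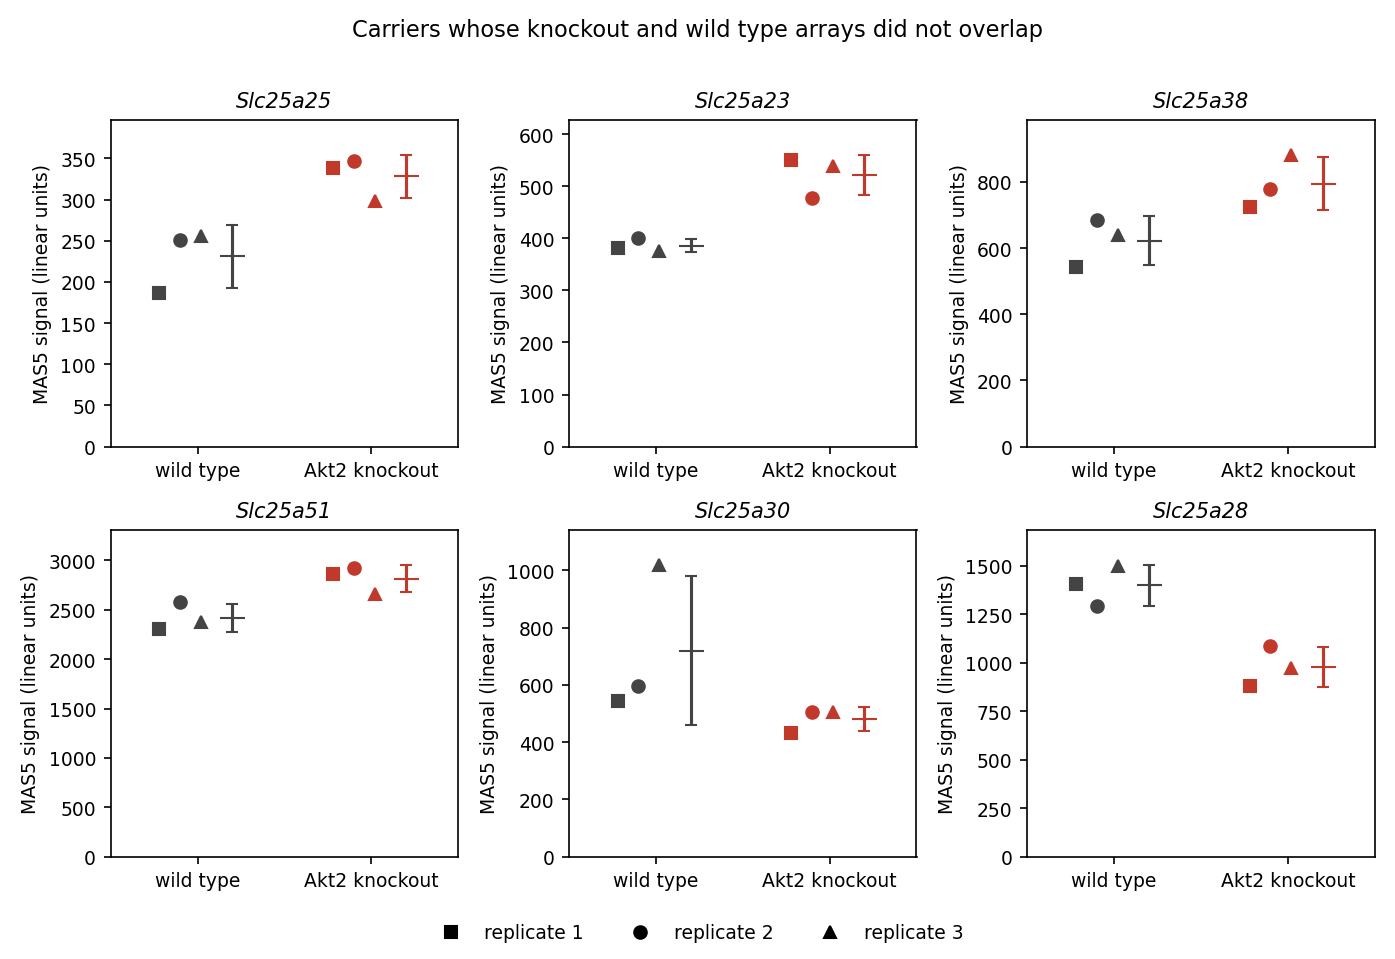
Signal (linear MAS5 units) of the 6 carriers whose 3 knockout arrays (red) all lay above or below the 3 wild type arrays (dark), with mean and SD beside the points. Slc25a23, Slc25a25, Slc25a38 and Slc25a51 are higher in the knockout, and wild type replicate 3 (triangle) stands far above the rest in Slc25a30.

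Cofactor and nucleotide carriers stayed close to 0. Of 9 tested, 7 had a higher and 2 a lower mean in the knockout, from -0.14 to 0.22, and 0 passed. Slc25a51, the carrier that brings NAD into mitochondria, had 2310, 2579 and 2372 in the wild type and 2862, 2926 and 2658 in the knockout. The arrays did not overlap, but the log2 difference was only 0.22 (SE 0.15), with 0.31 for replicate 1 and 0.17 for the rest. Its other probe sets gave 0.04 and 0.06 with overlap. Slc25a39, which takes glutathione into mitochondria, had 17449, 18505 and 17317 against 16290, 19224 and 19563, a log2 difference of 0.04 (SE 0.16). Its probe set is also of the kind marked _x_at, with a wild type mean of 17760, against 3920 for the next brightest. Of the 5 probe sets of Slc25a39, 3 were slightly higher and 2 lower in the knockout (-0.26 and -0.42). The coenzyme A carrier Slc25a42 had a log2 difference of 0.14 (SE 0.18), and Slc25a26, which carries S-adenosylmethionine, had -0.09 (SE 0.20). The pyrimidine nucleotide carriers Slc25a33 and Slc25a36 had 0.04 (SE 0.15) and 0.10 (SE 0.20).

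Mitoferrins bring iron to the matrix for haem and iron-sulphur clusters. Slc25a28, or mitoferrin 2, the form found in most tissues, had the lowest unadjusted p of all carriers. It had 1406, 1291 and 1500 in the wild type and 878, 1085 and 970 in the knockout. Every knockout array was below every wild type array, and the means were 978 ± 104 against 1399 ± 105 (SD, n = 3 each). On the log2 scale the difference was -0.51 (SE 0.16, 95% interval -0.90 to -0.12), -0.67 for replicate 1 and -0.43 for replicates 2 and 3. By limma its unadjusted p was 0.0175 and its adjusted p 0.9999. These became 0.00644 and 0.5861 when replicate 1 against replicates 2 and 3 was a block. Leaving out any 1 array left it between -0.59 and -0.44. It is read by 1 probe set, and its promoter window, printed above, holds none of the motifs searched.

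Some markers of other cells were also lower in the knockout. All 6 of 6 endothelial markers had a lower mean, with summed signals of 8103 to 11007 in the knockout and 8738 to 12519 in the wild type. For 3 of them (Pecam1, Tek and Vwf) every knockout array was below every wild type array, as for 3.56% of all genes. All 6 of 6 macrophage markers had a lower mean as well, with summed signals of 11149 to 21250 against 15537 to 22474. For each of them the arrays of the genotypes overlapped, and no marker of either list had a signal near 0. Other lists went the other way: 5 of 7 fibroblast markers and 5 of 6 smooth muscle and pericyte markers had a higher mean. Of 5 adipocyte markers with a probe set, 2 were tested and these were higher. Of 6 skeletal muscle markers, 2 were tested and these were lower. In replicates 2 and 3 alone these were at -0.0017 (Tnni2) and 0.20 (Mylpf). Markers below the filter went either way, such as Actn3 (0.76, all knockout arrays higher) and Myh1 (-1.19), or Adipoq (0.29) and Lep (-0.64). The part of these markers in the Slc25a28 value was not tested. Slc25a37, mitoferrin 1 of developing red cells, was chosen after its values were seen. It had 447, 757 and 679 in the wild type and 811, 741 and 747 in the knockout. Wild type replicate 1 was the low array, and the log2 difference was 0.31 (SE 0.22) with it and 0.09 without it.

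Slc25a30, also called KMCP1, is a relative of the uncoupling proteins first described in kidney. It had 544, 597 and 1019 in the wild type and 432, 507 and 506 in the knockout. All knockout arrays were lower, but 1 wild type array, replicate 3, was far above the rest. In log2 terms the difference was -0.51 (SE 0.26, 95% interval -1.12 to 0.11) and -0.24 without wild type replicate 3. Its 4 other probe sets gave -0.61 to 0.10 and overlapped. The related Slc25a14 and Slc25a27 were dim, at 17.2 to 266 and 100.2 to 292, with differences of -0.21 (SE 0.73) and 0.34 (SE 0.35).

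**Figure D4:**
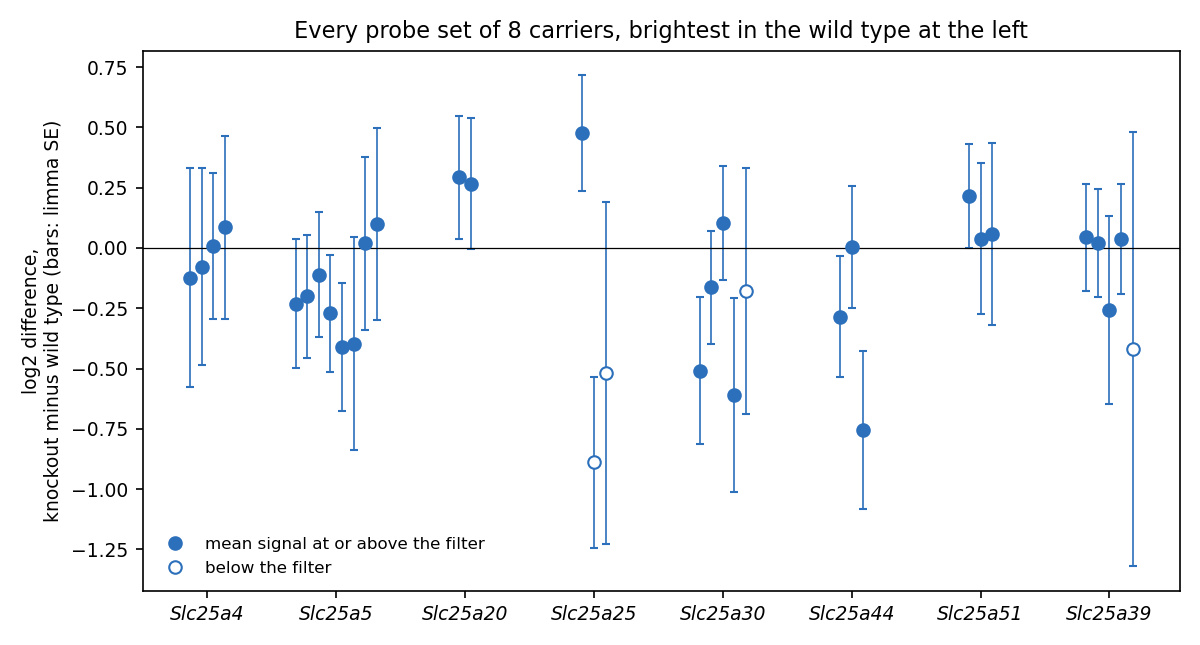
Log2 difference (knockout minus wild type) of every probe set of 8 carriers, with the brightest in the wild type at the left of each gene and bars for limma standard errors from a fit over all probe sets. Probe sets of Slc25a20 lie close together, while the dim ones of Slc25a25 (open circles) lie on the other side of 0 from its brightest.

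Carriers with no settled substrate made up most of the last group. Slc25a34, an orphan carrier, had 3897, 3123 and 3190 in the wild type and 3878, 4601 and 4212 in the knockout. In replicates 2 and 3 both knockout arrays were above both wild type arrays (log2 0.48), whereas the replicate 1 pair was level (-0.01), and the pooled difference was 0.32 (SE 0.17). Slc25a35, another orphan carrier, had 407, 224 and 240 against 439, 299 and 407. Its log2 difference was 0.40 (SE 0.27) with overlap, 0.10 for replicate 1 and 0.55 for replicates 2 and 3. It was 0.65 with wild type replicate 1 left out and 0.25 with wild type replicate 2 left out. Of 6 tested in this group, 5 had a higher mean and 0 passed.

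The replicate 1 pair and the other 4 arrays gave opposite signs for 19 of the 38 carriers, against 49.9% of all genes. The median difference of the carriers was -0.06 for replicate 1 and 0.10 for replicates 2 and 3, where all genes had 0.01 and 0.00. Slc25a53, an orphan carrier, showed the widest split. It had 20.5, 131 and 136 in the wild type and 242, 100.1 and 91.1 in the knockout, so its differences were 2.65 and -0.40. Its signal lay just above the filter, with a mean log2 of 6.96 where the filter was 6.87. Slc25a14 (6.97) was the next above it, and Slc25a2 (6.51) and Slc25a48 (6.41) were the nearest below.

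**Figure D5:**
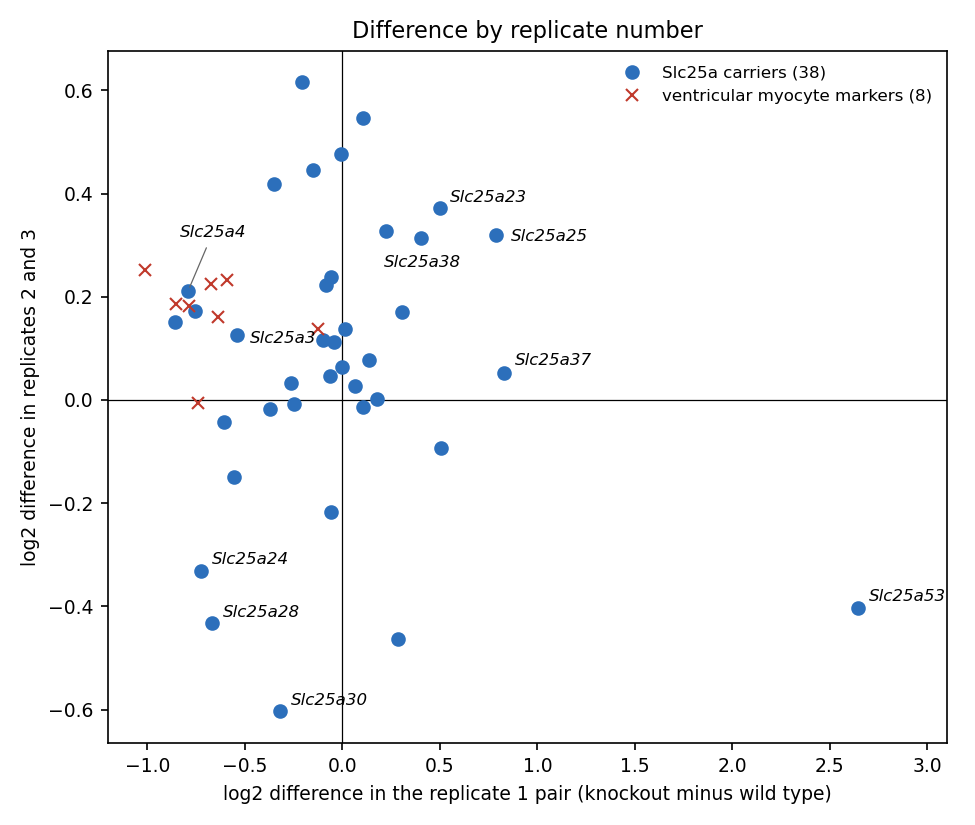
Log2 difference (knockout minus wild type) of each tested carrier in the replicate 1 pair (x axis, 1 array a genotype) against that in replicates 2 and 3 (y axis, 2 arrays a genotype). Crosses are 8 ventricular myocyte markers. Slc25a4 and Slc25a3 lie among these markers at the upper left, Slc25a23, Slc25a25 and Slc25a38 at the upper right, and Slc25a28, Slc25a30 and Slc25a24 at the lower left.

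The 6 carriers below the filter were Slc25a2, Slc25a48, Slc25a18, Slc25a31, Slc25a54 and Slc25a41. Their signals lay between 2.9 and 215, and their genotypes overlapped in every case. Slc25a18, a glutamate carrier of astrocytes, had 5.1 to 140 in the wild type and 9.3 to 65.3 in the knockout. No detection calls were used here, so such signals cannot be told from background.

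None of the genes that work beside the carriers passed either. Of 29 with a probe set, 28 were tested, 14 with a higher and 14 with a lower mean, and 0 passed (lowest limma adjusted p = 0.9999). An unadjusted p under 0.05 was found for 0 of 28, and for 1, Ppara, with either block. Ucp3, the uncoupling protein of muscle, had 871, 816 and 521 in the wild type and 558, 550 and 551 in the knockout, a log2 difference of -0.37 (SE 0.22) with overlap. The gene not tested was Ucp1, the uncoupling protein of brown fat, at 7.3 to 24.8, named after its values were seen. Among sideroflexins, carriers of serine and related solutes, Sfxn3 had a difference of -0.54 (SE 0.46) and Sfxn4 0.19 (SE 0.17). Sfxn3 had 380 in wild type replicate 1 against 87.3 to 130 elsewhere, and its differences were -1.75 for replicate 1 and 0.06 for replicates 2 and 3. Among the outer membrane channels Vdac2 had -0.10 (SE 0.20).

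Among genes for the import of carriers, 3 of 8 had a higher mean and 0 passed. Timm22, the channel that inserts carriers into the inner membrane, had 1468, 1437 and 1598 against 1752, 1606 and 1782. Its arrays did not overlap, at a log2 difference of 0.19 (SE 0.15), the only one of the 28 so placed (3.57%, against 7.46% of all genes). Among transcriptional regulators of mitochondrial genes, 4 of 6 had a higher mean. Ppara, the nuclear receptor that controls fatty acid genes, had 3046, 1582 and 1877 against 3782, 2339 and 2120, a log2 difference of 0.35 (SE 0.32), with 0.31 for replicate 1 and 0.37 for replicates 2 and 3. With replicate 1 against replicates 2 and 3 as a block its SE was 0.12, its unadjusted limma p 0.0261 and its adjusted p 0.5861. Ppargc1a, the coactivator PGC-1 alpha, had 0.26 (SE 0.26) and Esrra 0.15 (SE 0.18).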

How the data were processed

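The authors deposited intensities on a linear scale for 45101 probe sets and 6 arrays, computed with MAS5 per the submitters' processing notes. The version is not given in these sources. On every array the mean without the top and bottom 2% was 500, and this scaling was kept. It does not even out arrays whose distributions differ in shape. Tests left out 64 control probe sets, and 932 probe sets with several gene symbols and 9160 unnamed here were not used.

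Tests used log2(signal + 21.7), with the 20th percentile of all values as the pseudocount. This understates the change of dim genes. Genes whose brightest probe set had a mean log2 at or above the median of all probe sets, 6.868, were tested by lmFit and eBayes of limma 3.58.1 (R 4.3.3) without covariates, with a threshold of 0.05 on the Benjamini-Hochberg adjusted p. The code was checked on simulated data that lacked the replicate 1 shift, so the check does not show how the test behaves on these arrays. Gene names came from the annotation of the platform, and all 44 carriers matched a RefSeq symbol (GRCm38.p6). Promoter windows are RefSeq's.

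Each pair of same-numbered arrays deviated together from the genotype means (correlations of 0.608, 0.476 and 0.382), and a fit with the replicate number as a block was run too. Replicates 2 and 3 also correlated across numbers (0.362 and 0.412). Deviations cancel within a genotype, so where replicate 1 stands apart replicates 2 and 3 lean the same way. The correlations among replicates 2 and 3 follow in part from that. Wild type replicate 3 was closer to knockout replicate 2 (0.412) than to knockout replicate 3 (0.382). The correlations thus set replicate 1 apart but do not pair replicates 2 and 3 by number. What a number marks is not stated in the labels. In that fit, as without a block, 0 carriers passed.

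The carriers, lists and alternatives were chosen with earlier results of these data known. Named by rule were 17 carriers: the 6 with the brightest wild type signal, the 10 with the lowest unadjusted p, the 6 with arrays that did not overlap, and 7 chosen for their role. Slc25a24 and Slc25a37, and carriers given in passing, were chosen after their values were seen. Related genes are at most 3 a list, by lowest p.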

Additional observations from a re-analysis of the deposited data

How the results depend on the processing

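Under the 11 alternatives that leave out no array, numbers 2 and 3 alone, and the 6 that leave out 1 array, 0 carriers and 0 related genes passed. The count of all genes that passed was 1 with the filter at the 75th percentile (adjusted p of Akt2 0.0475), 1 with a trended, robust variance (Akt2 at -2.69, 0.0452), 1 with numbers 1 against 2 and 3 as a block (not Akt2) and 2 at a threshold of 0.10. It was 0 with the replicate block and without any 1 array. The replicate block called none of the carriers and changed no call. By unadjusted limma p under 0.05 it gave 6 carriers, beside 5.99% of all genes, and the block of number 1 gave 5, beside 8.32%. Numbers 2 and 3 alone gave 10. That count was 1 without a filter, 0 with median scaling and 0 to 6 when 1 array was left out (0 without knockout replicate 3, 6 without wild type replicate 1). For these settings and for numbers 2 and 3 alone the share of all genes was not counted. Their counts therefore cannot be read as a result about the carriers. Carriers whose arrays did not overlap numbered 2 with median scaling, beside 5.21% of all genes. With the mean of all probe sets they numbered 3 (Slc25a23, Slc25a28 and Slc25a38, of 35 tested), beside 7.46%. With numbers 2 and 3 alone they numbered 19, beside 43.2%. Leaving out 1 array gave 7 to 13, beside 12.4% to 29.2% of genes; the highest came with wild type replicate 1 left out, and leaving out knockout replicate 1 gave 12. Fewer arrays overlap less by construction. The median difference of the carriers stayed between 0.01 and 0.16, and between 0.02 and 0.13 without any 1 array.

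Of 19 named carriers, 13 kept 1 sign under every alternative that gave them a value (Slc25a25, Slc25a35 and Slc25a44 missed the filter in 1 or 2). The cause of the changes of sign in the other 6 was not tested. With median scaling Slc25a3 was 0.0108 and Slc25a12 0.0406. With quantile normalization Slc25a4 was 0.0209. With the mean of all probe sets Slc25a3 was 0.0445, Slc25a39 -0.11 and Slc25a12 0.0018. In numbers 2 and 3 alone Slc25a4 was 0.21, Slc25a3 0.13 and Slc25a12 0.0328. Without any 1 array Slc25a4 ran from -0.45 to 0.36, Slc25a3 from -0.35 to 0.26, Slc25a12 from -0.23 to 0.20, Slc25a13 from -0.0699 to 0.24, Slc25a39 from -0.0043 to 0.13 and Slc25a24 from -0.86 to 0.0636. Akt2 ran from -2.88 to -2.45, and its adjusted p over all alternatives from 0.0452 to 0.9999 (with median scaling). Signals of dim carriers sit near the pseudocount and limit what can be read from them.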
